A study of Homo sapiens with 2 samples.

Results

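The genes described here are 50 genes of DNA replication, from the loading of the replicative helicase at origins to the enzymes and accessory proteins of the fork. They were taken by gene symbol from a table of 58302 rows, and all 50 were found, each on 1 row. The table came from poly(A) RNA sequencing of Tu212 cells, an epithelial-derived line that serves in work on squamous carcinoma of the head and neck. Cells were treated for 48 h with a pEZ plasmid carrying PRMT5, and control cells with the pEZ vector, so both groups had received a plasmid. The labels call the groups PRMT5 overexpression and control, and each was represented by 1 library. The sources used here do not say how many cells took up the plasmid or whether cells were selected.

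Replication origins are marked by the origin recognition complex (ORC). In G1, ORC together with CDC6 and CDT1 loads a double ring of the MCM2-7 helicase, a step called licensing, and geminin blocks CDT1 once S phase has begun. The kinases CDK and DDK, with CDC45 and the GINS complex, then turn the loaded ring into an active helicase, behind which the polymerases, the PCNA clamp and its RFC loader copy the DNA. Many of these genes are E2F targets whose transcripts rise as cells enter S phase, and their levels are in common use as a mark of proliferation. PRMT5, an arginine methyltransferase, is known to act on histones, on splicing proteins and on several DNA repair and replication proteins, the flap nuclease FEN1 among them.

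Reads on genes came to 19908258 in the PRMT5 overexpression library and 14119997 in the vector control library. In reads scaled to library size (CPM), PRMT5 itself was at 293 CPM in the PRMT5 overexpression library, against 145 CPM in the vector control library. Its log2 ratio was 1.01 (counting interval 0.94 to 1.09), in the direction the labels give, and PRMT5-AS1 shares some of its exon bases. The 9 epithelial markers summed to 11195 CPM in the PRMT5 overexpression library and 10108 CPM in the vector control library. Of these, KRT5 alone was at 5077 CPM in the PRMT5 overexpression library and 4575 CPM in the vector control library. The 15 fibroblast, leukocyte and endothelial markers had between 0 and 69 reads each in either library. The 5 fibroblast markers summed to 1.98 CPM in the PRMT5 overexpression library and 5.47 CPM in the vector control library, and the 5 leukocyte markers to 0.812 CPM in the PRMT5 overexpression library and 1.54 CPM in the vector control library. The 5 endothelial markers, with CDH5 and KDR at 0 in both libraries, summed to 4.46 CPM in the PRMT5 overexpression library and 5.96 CPM in the vector control library. Their part in the results was not tested.

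With 1 library per group there was no replicate check, so the values carry no test and no p-value. Each log2 ratio below is PRMT5 overexpression minus vector control, on CPM scaled by the trimmed mean of M-values (TMM). Each interval is a 95% Clopper-Pearson interval, which covers counting error only and leaves out variation between libraries. It treats reads as independent molecules, which they are not, so it may be too narrow. The values therefore describe these libraries, not the condition.

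As a group the replication genes stood almost level in the libraries. The median log2 ratio of the 50 genes was 0.01, against 0.00 over all 17777 genes that reached 10 reads in either library. Log2 ratios were above 0 for 26 of the 50 genes and below 0 for 24, where 50.4% of all such genes, and 48.9% of those with similar read numbers, were above 0. Of the 50 genes, 45 lay within 1.2-fold, that is 90% of them, against 67.4% of all 17777 genes and 84.3% of the 9927 genes with similar read numbers. In a bulk library, a different share of cells in S phase and a different amount of RNA per cell cannot be told apart.

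**Figure D1:**
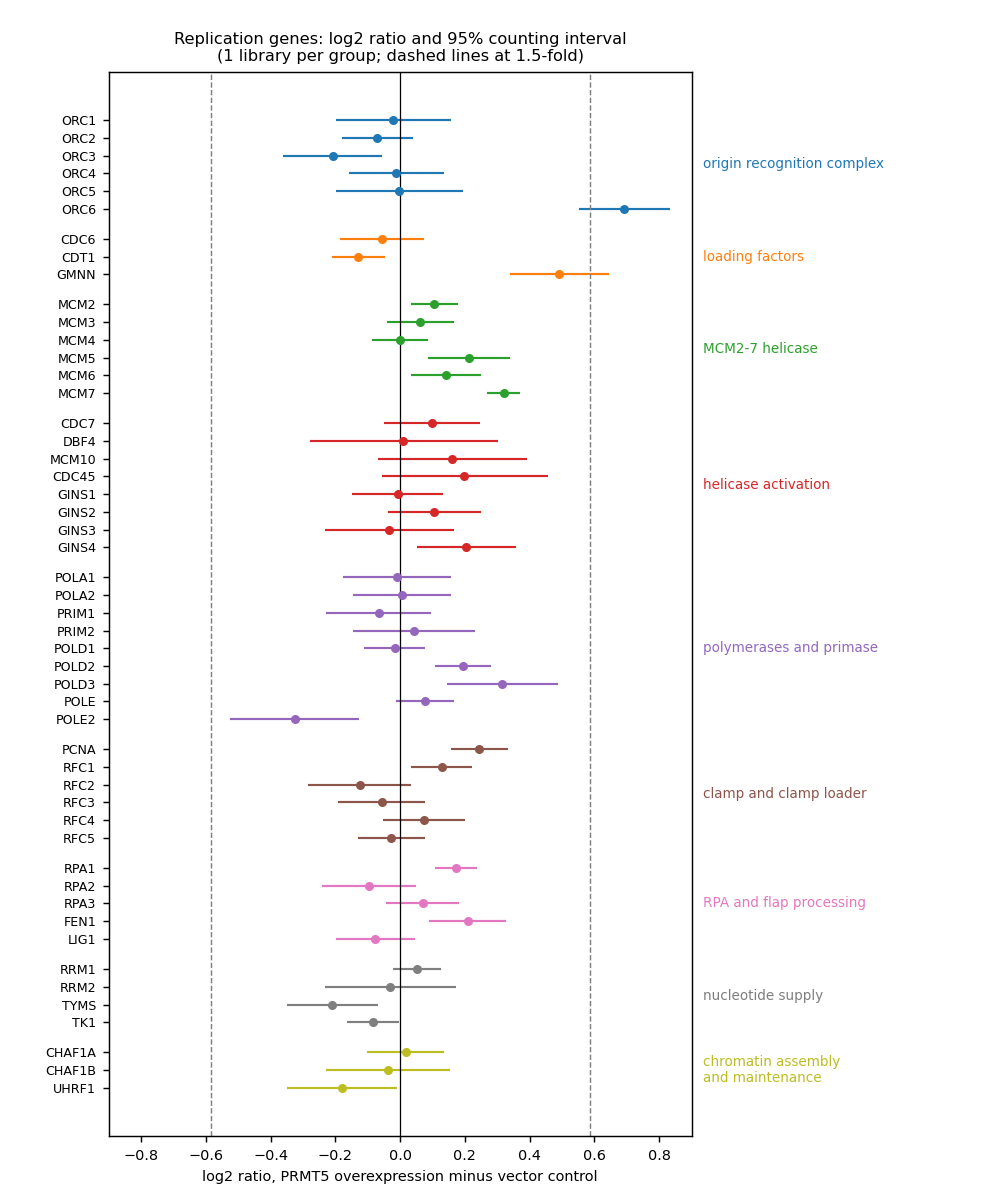
Log2 ratio (PRMT5 overexpression minus vector control) of each of the 50 replication genes, ordered by role; points are single library pairs and bars are 95% counting intervals. ORC6 lies past the dashed 1.5-fold line at 0.69, GMNN is next at 0.49, and POLE2 is lowest at -0.33.

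Only 1 of the 50 genes, ORC6, was higher by 1.5-fold or more and 0 were lower by as much, where 7.06% of all 17777 genes were higher and 5.33% lower by that fold. All 50 replication genes had a mean of at least 204.5 reads, so a fairer background is the 9927 genes within their range of mean reads. In that range 1.85% of genes passed 1.5-fold on the higher side and 1.84% on the lower side. At 1.2-fold or more, 4 replication genes were higher and 1 was lower, against 7.76% higher and 7.98% lower among the genes in that range. The shares of the replication genes were 2% higher and 0% lower at 1.5-fold, and 8% higher and 2% lower at 1.2-fold, so the number on the higher side is near the background. Within this range 144 genes, or 1.45%, were as high as ORC6 or higher, and 560 genes, or 5.64%, were as low as POLE2 or lower.

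**Figure D2:**
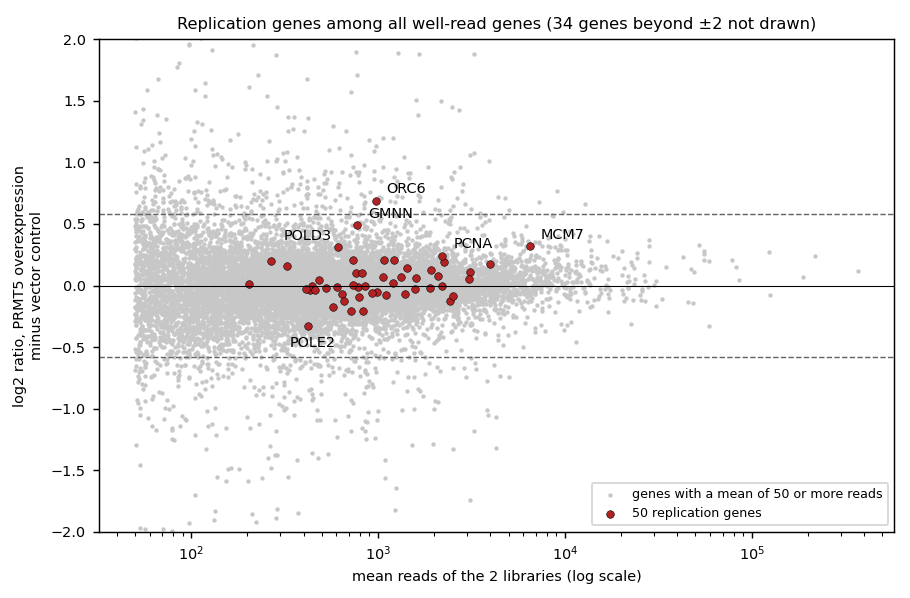
Log2 ratio against mean reads of both libraries (log axis) for the 50 replication genes (red) and for every gene whose mean reached 50 reads (grey), with 34 genes beyond the axis not drawn. Most red points lie in the centre of the grey cloud, and ORC6 is the only red point outside the dashed 1.5-fold lines.

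Among the 6 ORC genes, which encode the complex that marks origins, ORC6 stood apart from the other subunits. ORC6 (ENSG00000091651, plus strand of chromosome 16, 46689643 to 46698394 in GRCh38) encodes the smallest subunit, which also serves in cytokinesis. It had 1346 reads in the PRMT5 overexpression library, against 603 in the vector control library. This is 68.3 CPM against 42.3 CPM, a 1.61-fold higher level with a log2 ratio of 0.69 (0.55 to 0.83). On the log2(FPKM + 1) scale, which understates the ratios of low genes, the difference was 0.57, just under 1.5-fold. ORC1, the ATPase subunit that is known to vary over the cell cycle, had 30.9 CPM in the PRMT5 overexpression library and 31.3 CPM in the vector control library, with a log2 ratio of -0.02 (-0.20 to 0.16). ORC4 and ORC5, further ATPase-fold subunits of the ring, had log2 ratios of -0.01 and 0.00, and ORC2 one of -0.07. The lowest of the 6 was ORC3, at 39.6 CPM in the PRMT5 overexpression library and 45.7 CPM in the vector control library, with a log2 ratio of -0.21 (-0.36 to -0.06). The libraries thus differed in ORC6 alone by more than 1.2-fold among these subunits.

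The share of each gene in the summed reads of its complex needs no scaling factor between libraries. The pairs CDT1 with GMNN and POLE with POLE2 were chosen for this after their values were seen. ORC6 held 23.5% (22.4% to 24.6%) of the ORC reads in the PRMT5 overexpression library and 15.3% (14.2% to 16.5%) in the vector control library. ORC2 held 27.5% in the PRMT5 overexpression library and 30.5% in the vector control library, and ORC3 13.6% in the PRMT5 overexpression library and 16.6% in the vector control library, with intervals that did not overlap between libraries. Shares must sum to the whole, so a higher share of ORC6 lowers the others. In an intron-retaining transcript, the longest one annotated for ORC6, 25.7% of the 50-base stretches occur in transcripts of other genes, against 4.85% in its longest coding transcript. Which parts of ORC6 the reads came from was not analysed here.

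The licensing factors showed the second highest ratio, at the inhibitor and not at the loaders. GMNN encodes geminin, which binds CDT1 and keeps origins from being licensed again (ENSG00000112312, plus strand of chromosome 6, 24774931 to 24786099). It had 1026 reads in the PRMT5 overexpression library and 528 in the vector control library. Its level was 52.0 CPM against 37.0 CPM, 1.41-fold higher, with a log2 ratio of 0.49 (0.34 to 0.65). CDT1, the helicase loader that geminin blocks, had 2707 reads in the PRMT5 overexpression library and 2142 in the vector control library, and a log2 ratio of -0.13 (-0.21 to -0.05). CDC6, the ATPase that joins ORC to recruit the helicase, was at 57.0 CPM in the PRMT5 overexpression library and 59.3 CPM in the vector control library, with a log2 ratio of -0.06 (-0.19 to 0.07). There were 0.379 GMNN reads per CDT1 read in the PRMT5 overexpression library, against 0.246 in the vector control library, and the log2 of this quotient was 0.62. These are read ratios and not ratios of transcript numbers, as the lengths of the transcripts differ.

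**Figure D3:**
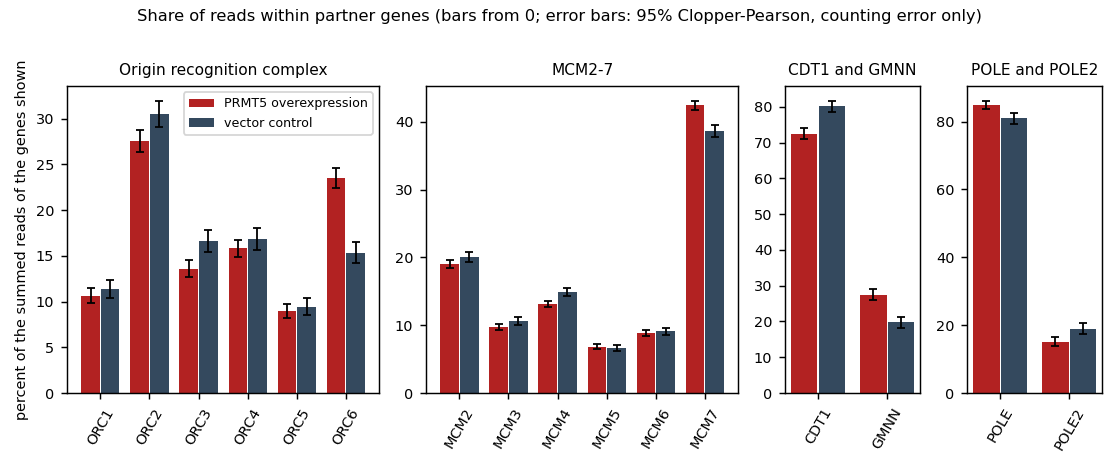
Percent of the summed reads of the genes in each panel that fell on each gene, in the PRMT5 overexpression library (red) and the vector control library (dark blue), for ORC, MCM2-7, CDT1 with GMNN, and POLE with POLE2. Bars start at 0 and error bars are 95% Clopper-Pearson intervals; ORC6 holds 23.5% in the PRMT5 overexpression library against 15.3% in the vector control library, and GMNN 27.5% in the PRMT5 overexpression library against 19.8% in the vector control library.

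Start-site sequence is shown for the 4 genes farthest from 0 that the RefSeq promoter table (GRCh38.p14) holds, which are ORC6, GMNN, POLE2 and MCM7. Capitals mark E2F words (TTTCCCGC, TTTGGCGC, TTTCGCGC or TTTGCCGC), CCAAT and CACGTG on either strand, and TTTGAA was searched too. ORC6 and GMNN are given outside annotated exons, MCM7 and POLE2 as 30 bases across the start, a stretch that holds 3 of the 6 words in the MCM7 promoter. Where the table lists several start sites for a gene, the one with the most words is shown.
ORC6: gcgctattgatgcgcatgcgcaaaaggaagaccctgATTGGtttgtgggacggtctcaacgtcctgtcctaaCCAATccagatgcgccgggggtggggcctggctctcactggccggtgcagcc
GMNN: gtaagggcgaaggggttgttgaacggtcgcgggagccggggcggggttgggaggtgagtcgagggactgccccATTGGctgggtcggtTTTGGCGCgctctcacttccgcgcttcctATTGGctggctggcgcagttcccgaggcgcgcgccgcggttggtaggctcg
MCM7: CACGTGgggggcgacgTTTCGCGCCAATtt
POLE2: tgcggcggtgGCGCCAAAtcgcaaatatgg
These are chr16:46689519-46689642 and chr6:24775245-24775412 on the plus strand, and chr7:100101393-100101422 and chr14:49688200-49688229 on the minus strand. ORC6 has CCAAT on both strands and none of the E2F words, while GMNN has TTTGGCGC that begins 80 bases before the start, between 2 copies of CCAAT on the other strand. In MCM7 the words TTTCGCGC and CCAAT overlap by a base, and in POLE2 TTTGGCGC lies on the other strand across the start.

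The promoter table held 44 of the 50 genes, with 250 bases before and 50 after each start. A gene counted as holding a word where any of its listed start sites did. Any E2F word was found in 21 of the 44 genes, or 47.7%. It was found in 6.31% of the 11140 genes in the table that reached 10 reads, and in 3.99% of all 27305 genes in it. CCAAT was found in 26 genes, or 59.1%, against 42.8% of those counted genes and 39.7% of all genes in the table. CACGTG, the core E-box word, was found in 7 genes, or 15.9%, against 12.5% of counted genes and 8.77% of all genes. TTTGAA was found in 2 genes, or 4.55%, against 13.6% and 18.2%. The 21 genes with an E2F word had a median log2 ratio of -0.01 (from -0.33 to 0.49), and the 23 without had 0.01 (from -0.12 to 0.69). The 26 genes with CCAAT had a median of 0.06 (from -0.21 to 0.69), and the 18 without had -0.01 (from -0.33 to 0.21). For TTTGAA the medians were 0.03 in 2 genes and -0.005 in the other 42. The 7 genes with CACGTG, GMNN and MCM7 among them, had a median of 0.17 (from -0.01 to 0.49). The other 37 had a median of -0.01 (from -0.33 to 0.69), and none of these splits was tested. GMNN is counted among the 7 through another start site than the one shown. A word in a promoter is a description of its letters and not a binding site.

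The MCM2-7 genes, which encode the ring of the replicative helicase, were level or slightly higher in the PRMT5 overexpression library. Their median log2 ratio was 0.12, and 5 of the 6 lay above 0, where 48.9% of the genes with similar read numbers did. With so few genes this count was not tested. MCM7 (ENSG00000166508, minus strand of chromosome 7, 100092728 to 100101940) was the highest, with 8265 reads in the PRMT5 overexpression library and 4791 in the vector control library. At 419 CPM against 336 CPM it was 1.25-fold higher, and its log2 ratio was 0.32 (0.27 to 0.37). MCM5 was at 67.5 CPM in the PRMT5 overexpression library and 58.3 CPM in the vector control library, with a log2 ratio of 0.21 (0.09 to 0.34). MCM6 had a log2 ratio of 0.14 (0.03 to 0.25), MCM2 of 0.11 (0.03 to 0.18) and MCM3 of 0.06 (-0.04 to 0.17).

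MCM4, which neighbours MCM7 in the ring, was at 129.6 CPM in the PRMT5 overexpression library and 129.7 CPM in the vector control library. MCM7 held 42.4% (41.7% to 43.1%) of the MCM2-7 reads in the PRMT5 overexpression library and 38.6% (37.8% to 39.5%) in the vector control library. MCM4 held 13.1% in the PRMT5 overexpression library and 14.9% in the vector control library, and the remaining 4 genes had overlapping intervals. The MCM7 gene shares 392 exon bases with AP4M1 on the opposite strand, which had 573 reads in the PRMT5 overexpression library and 359 in the vector control library. Summed with AP4M1, MCM7 had a log2 ratio of 0.31.

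The 8 genes that act in helicase activation had a median log2 ratio of 0.10, and 0 of them differed by 1.2-fold. Among the genes with similar read numbers 84.3% lay within 1.2-fold. CDC45, a helicase cofactor, had 330 reads in the PRMT5 overexpression library and 208 in the vector control library, with a log2 ratio of 0.20 (-0.06 to 0.46). GINS4 was at 46.1 CPM in the PRMT5 overexpression library and 40.0 CPM in the vector control library, with a log2 ratio of 0.20 (0.05 to 0.36). The other GINS genes, whose products form a tetramer with GINS4, were at 0.11 for GINS2, -0.01 for GINS1 and -0.03 for GINS3 on the log2 scale. The intervals of the share of reads within GINS overlapped between libraries for all 4 genes. MCM10, which stimulates helicase activation, had 397 reads in the PRMT5 overexpression library and 257 in the vector control library, with a log2 ratio of 0.16 (-0.07 to 0.39).

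CDC7, the kinase of DDK, had a log2 ratio of 0.10 (-0.05 to 0.25). Its activating subunit DBF4 had the fewest reads of the 50 genes, 238 in the PRMT5 overexpression library and 171 in the vector control library, and a log2 ratio of 0.01 (-0.28 to 0.30). At this depth a difference of up to 1.2-fold in DBF4 was not detectable, because its interval is wider than that on both sides.

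The 9 polymerase and primase genes had a median log2 ratio of 0.00 and held the lowest of the 50 values. POLE2, the non-catalytic B subunit of the leading-strand polymerase epsilon (ENSG00000100479, minus strand of chromosome 14, 49643555 to 49688422), had 441 reads in the PRMT5 overexpression library and 400 in the vector control library, or 22.4 CPM against 28.1 CPM. Its level was 1.25-fold lower, with a log2 ratio of -0.33 (-0.52 to -0.13). POLE, the catalytic subunit, was at 126 CPM in the PRMT5 overexpression library and 119.6 CPM in the vector control library, with a log2 ratio of 0.08 (-0.01 to 0.17). POLE2 thus held 15.1% (13.8% to 16.4%) of the reads of this pair in the PRMT5 overexpression library and 19.0% (17.3% to 20.7%) in the vector control library.

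POLD3, an accessory subunit of the lagging-strand polymerase delta, had 774 reads in the PRMT5 overexpression library and 450 in the vector control library. Its log2 ratio was 0.31 (0.15 to 0.49). POLD3 shares 123 exon bases on the same strand with AP001372.2, which had 246 reads in the PRMT5 overexpression library and 231 in the vector control library, and summed with it POLD3 was at 0.12. POLD2, the subunit that bridges POLD3 to the catalytic POLD1, was at 140.5 CPM in the PRMT5 overexpression library and 123 CPM in the vector control library, with a log2 ratio of 0.19 (0.11 to 0.28). POLD1 had a log2 ratio of -0.02 (-0.11 to 0.08). Of the summed reads of POLD1, POLD2 and POLD3, POLD1 held 38.1% (36.9% to 39.4%) in the PRMT5 overexpression library. In the vector control library it held 42.1% (40.5% to 43.6%), while the share intervals of POLD2 and POLD3 overlapped between libraries. The 4 genes of polymerase alpha-primase, which makes the RNA-DNA primers, lay between -0.07 for PRIM1 and 0.04 for PRIM2. POLA1, its catalytic polymerase subunit, had a log2 ratio of -0.01 and POLA2 one of 0.00, and the share of each in their summed reads had overlapping intervals.

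PCNA, the sliding clamp, was at 139 CPM in the PRMT5 overexpression library and 118 CPM in the vector control library. These were 2745 reads in the PRMT5 overexpression library and 1677 in the vector control library. Its log2 ratio was 0.24 (0.16 to 0.33). Of the clamp loader genes, RFC1, the large subunit, was at 0.13 (0.03 to 0.22), RFC4 at 0.07, RFC5 at -0.03, RFC3 at -0.06 and RFC2 at -0.12, each log2 ratio within 1.2-fold. RPA1, the large subunit of the protein that coats single-stranded DNA, had 4857 reads in the PRMT5 overexpression library and 3118 in the vector control library, with a log2 ratio of 0.17 (0.11 to 0.24). RPA3 was at 0.07 and RPA2 at -0.09. RPA1 held 66.4% of the RPA reads in the PRMT5 overexpression library and 63.8% in the vector control library.

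FEN1, the nuclease that trims the flaps of Okazaki fragments, was at 76.2 CPM in the PRMT5 overexpression library and 65.9 CPM in the vector control library. Its log2 ratio was 0.21 (0.09 to 0.33). LIG1, the ligase that seals the trimmed fragments, was at 63.7 CPM in the PRMT5 overexpression library and 67.2 CPM in the vector control library, with a log2 ratio of -0.08 (-0.20 to 0.05). FEN1 shares exon bases with FADS2 and TMEM258 and was at 0.14 once summed with them.

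The genes of nucleotide supply lay at or below 0 except RRM1. TYMS, thymidylate synthase, had 906 reads in the PRMT5 overexpression library and 758 in the vector control library. Its level was 46.0 CPM against 53.2 CPM, which gave a log2 ratio of -0.21 (-0.35 to -0.07). Summed with ENOSF1 and TYMSOS, which share its exon bases on the opposite strand, it was at -0.13. The thymidine kinase gene TK1 had a log2 ratio of -0.08, the ribonucleotide reductase subunits RRM1 and RRM2 had 0.05 and -0.03, and RRM2 was at 0.15 with AC007240.1, with which it shares 1077 exon bases on the same strand.

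The chromatin genes behind the fork were near 0 or lower. UHRF1, which reads hemimethylated DNA for the maintenance methyltransferase, was at 32.2 CPM in the PRMT5 overexpression library and 36.4 CPM in the vector control library. Its log2 ratio was -0.18 (-0.35 to -0.01). CHAF1A and CHAF1B, subunits of the histone chaperone CAF-1, had log2 ratios of 0.02 and -0.04.

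Levels between genes can be compared only per length, and here CPM was divided by the merged exon length in GENCODE release 29. On this scale MCM7 was at 95.6 CPM per kilobase in the PRMT5 overexpression library and 76.6 in the vector control library. PCNA was at 94.7 CPM per kilobase in the PRMT5 overexpression library and 79.9 in the vector control library, and TK1, thymidine kinase, at 77.6 in the PRMT5 overexpression library and 82.3 in the vector control library. These were the top 3 of the 50 genes in each library. DBF4 was lowest, at 2.63 CPM per kilobase in the PRMT5 overexpression library and 2.62 in the vector control library. The level of MCM7 was 10.4 times that of MCM5, the lowest of the ring genes, in the PRMT5 overexpression library and 9.65 times in the vector control library. Per length of the longest coding transcript the factor was 7.12 in the PRMT5 overexpression library and 6.61 in the vector control library, with MCM7 first and MCM5 last again.

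The level of RRM1 per kilobase was 9.71 times that of RRM2 in the PRMT5 overexpression library and 9.17 times in the vector control library, and reads that RRM2 shares with AC007240.1 cannot be assigned with certainty. ORC6 was first of the ORC genes in the PRMT5 overexpression library, at 15.8 CPM per kilobase, and behind ORC2, ORC3 and ORC1 in the vector control library, at 9.81. With the longest coding transcript as the length it was first in both, at 40.2 in the PRMT5 overexpression library and 24.9 in the vector control library, so its place among the subunits depends on the length used. ORC4 was last of the 6 on both lengths in both libraries.

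**Figure D4:**
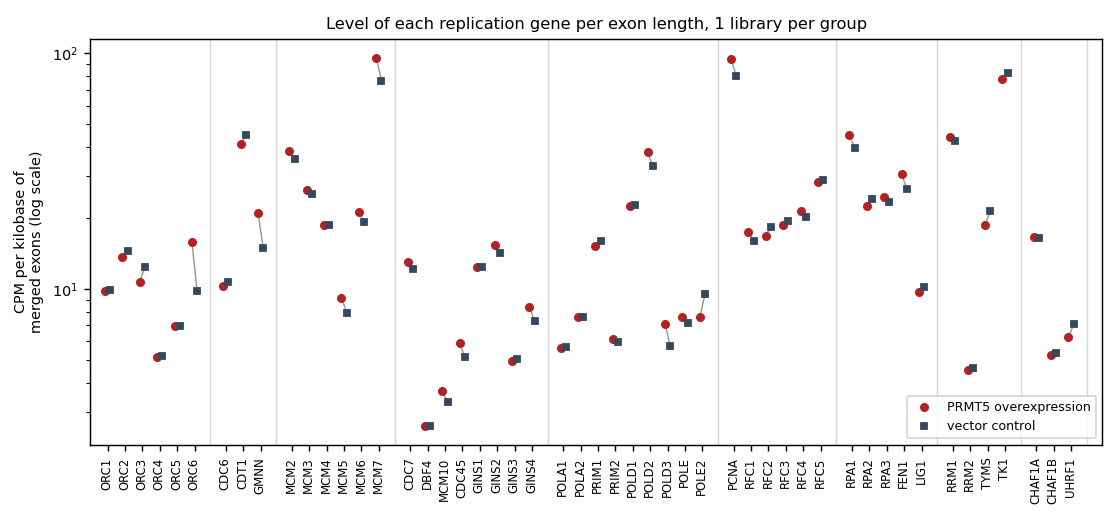
Level of each of the 50 genes in CPM per kilobase of merged exons (log axis), with the PRMT5 overexpression library (red circles) left of the vector control library (dark blue squares). The spread between genes, from 2.63 for DBF4 to 95.6 for MCM7 in the PRMT5 overexpression library, is far wider than the difference between libraries for any gene.

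The ratio can also be taken over summed reads, where the most read genes weigh most. The 50 genes together were at 3919 CPM in the PRMT5 overexpression library and 3698 CPM in the vector control library, a log2 ratio of 0.08 (0.07 to 0.10). Their median was 0.01, and MCM7 alone was at 419 CPM against 336 CPM within this sum. A background of summed reads over all genes is not given here, so the sum is not read as a difference of the group. The 6 MCM2-7 genes summed to 988 CPM in the PRMT5 overexpression library and 870.2 CPM in the vector control library, with a log2 ratio of 0.18 (0.15 to 0.22), the highest of the 9 roles. Without MCM7 the other 5 were at 0.09 (0.05 to 0.13), so much of this value came from MCM7. The ORC genes were at 0.08 (0.02 to 0.13) with ORC6 and at -0.07 (-0.14 to -0.00) without it, so the direction of their sum rests on ORC6. The RPA and flap genes were at 0.10 (0.06 to 0.15), and at 0.04 (-0.02 to 0.10) without RPA1. The clamp and loader genes were at 0.08 (0.04 to 0.13), and at 0.02 (-0.03 to 0.08) without PCNA. The nucleotide supply genes were at -0.04 (-0.08 to 0.01) and the chromatin genes at -0.04 (-0.13 to 0.04), so that the roles spanned a narrow range.

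Another 50 genes of replication, listed by role from general knowledge, were described in the same way. Their median log2 ratio was 0.00, with 26 above 0 and 24 below, where 50.4% of all 17777 genes were above 0. The roles below hold few genes each, and their counts were not tested. The highest of these genes was RBBP4, the third CAF-1 subunit, with a log2 ratio of 0.32 (0.22 to 0.41). All 5 genes listed for chromatin replication, RBBP4, SLBP, DNMT1, ASF1B and ASF1A, lay above 0, with a median of 0.12. SLBP, the histone mRNA binding protein, was at 0.27 (0.12 to 0.42). Of the 7 genes for nucleotide supply, 5 lay above 0, with a median of 0.08. Of the 6 genes for origin firing, 5 lay below 0, with a median of -0.16. TICRR, also called treslin, was at -0.25 (-0.38 to -0.12) and its partner TOPBP1 at -0.20 (-0.29 to -0.11). Among 12 genes of licensing control, 4 lay above 0, and DTL, the adaptor that targets CDT1 for destruction, was the lowest at -0.28 (-0.43 to -0.13). Of 20 further fork genes, 11 lay above 0, and TIPIN, a fork protection factor with 173 reads in the PRMT5 overexpression library and 171 in the vector control library, was the lowest at -0.45 (-0.76 to -0.14).

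Overlap and shared sequence limit some of these values. Of the 50 genes, 19 share exon bases with a gene that had 10 or more reads, and 31 do not, ORC6, GMNN, POLE2, PCNA and MCM5 among them. The 31 genes had a median log2 ratio of 0.00 and the 19 had 0.02. Summing left 3 genes outside their counting intervals. PRIM1, a primase subunit, was at -0.07 alone and at -0.53 with HSD17B6 and NACA. NACA, with 3105 reads in the PRMT5 overexpression library and 3473 in the vector control library, makes up most of that sum. PRIM1 shares only 33 of its 2437 merged exon bases with NACA, which was itself at -0.63, so the sum says little about PRIM1. RPA3 was at 0.07 alone and at -0.19 with UMAD1, and POLD3 is the third. In 5 genes at least 10% of the stretches of the longest transcript occur in other genes that reached 10 reads, so their reads are less certain. The shares were 25.8% in UHRF1, 25.1% in ORC6, 19.9% in PRIM2, 17.6% in DBF4 and 10.5% in ORC4. In POLA2, MCM2, PRIM1 and POLD1 a share of 10% or more was reached only when all other genes were included. It was up to 55.1% in POLA2, where 1.62% lay in counted genes. In POLA2, MCM2 and PRIM1 the main sharing gene had no row of counts, so its reads are unknown. Across the 50 genes the log2 ratio and merged exon length had a Spearman's rho of 0.14, and across 9923 genes in their range of mean reads one of -0.15. These points come from the same libraries and are not independent.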

How the data were processed

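Per the submitters' processing notes, CASAVA 1.8, HISAT2 2.1.0, StringTie 1.3.4b and edgeR were used with the builds GRCh38 and hg38, without their roles. The counter, annotation and strand setting are not given in the sources used here. The raw counts per gene were used as deposited by the authors, with 0 per-sample columns unused, and FPKM as deposited served as an alternative only.

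Rows of the same symbol were summed. TMM factors (edgeR 4.0.16 in R 4.3.3) came from genes that reached 10 reads in either library and were 0.990 for PRMT5 overexpression and 1.01 for vector control. Log2 ratios used a prior count of 1. The functions were checked on simulated data. Of the table's gene IDs, 58039 were in GENCODE release 29, 56647 with the same start and end. For shared sequence, 50-base stretches every 10 bases were searched in transcripts of all genes that do not share exons with the gene.

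All 50 genes are named, with PRMT5 and, of the other replication genes, those past 1.5-fold and the highest and lowest, of which 1 is not reported here. RBBP4's list partners, SLBP, TICRR, TOPBP1, DTL and TIPIN were added after their values were seen. The genes and lists were chosen with earlier results of these data known. The alternatives took size factors from DESeq2 1.42.0, total counts, prior counts of 0.1 and 5, other floors, the highest row per symbol, FPKM, sums over exon-sharing genes, thresholds of 1.2-fold and 2-fold, and means. Intervals came from scipy 1.17.1 and figures from matplotlib 3.10.9, in Python 3.11.15 with pandas 2.3.3.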

Additional observations from a re-analysis of the deposited data

How the results depend on the processing

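Settings for TMM factors from all genes, for genes without shared exons, for the background by read range for transcript length, for role sums without 1 gene and for shared sequence in counted genes were chosen after seeing the data. The median log2 ratio of the replication genes, 0.007, was 0.0297 with DESeq2 size factors, 0.0309 with TMM factors from all genes, -0.0212 with total counts and -0.0154 with FPKM, and the mean was 0.0502. For the other replication genes, at 0.00194, these values were 0.0245, 0.0257, -0.0265 and -0.0194, and the mean was -0.0301. Scaling shifts all ratios alike by construction, so a median this near 0 has no firm sign. At 1.2-fold 4 genes were higher and 1 lower, and at 2-fold 0 were higher. By construction a stricter threshold cannot give more genes. On the log2(FPKM + 1) scale, which understates the ratios of low genes, 0 genes were higher by 1.5-fold. ORC6 was at 0.575 on it, against 0.662 with total counts, and the part of the pseudocount in this was not tested. Among the 31 genes without shared exons, 15 were above 0. The PRMT5 log2 ratio was 0.931 with FPKM. Of 500 recalculated values for single genes, 497 stayed within their counting intervals, and the 3 others came from sums over exon-sharing genes. Many of these values could hardly move. Other floors could not change them, as every gene had a mean of at least 204.5 reads, and each gene is on 1 row. The 497 is therefore not a check of the ratios. Of the 50 genes 12 changed sign under some setting, all with a log2 ratio within 0.0697 of 0. No paired analysis was possible because neither group holds more than a single library.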
